A study of Mus musculus with 92 samples.

Results

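Krt7, Krt8, Krt18, Krt19, Krt20 and Krt23 are keratin genes of simple epithelium. They were taken by their symbols from the count tables, where they are 6 of 54532 genes. The tables hold 54 keratin symbols, and the 6 genes took 99.2% of all keratin reads. Krt7 (ENSMUSG00000023039, chr15:101411043-101430313, plus strand), Krt8 (ENSMUSG00000049382, chr15:101996698-102004482, minus strand) and Krt18 (ENSMUSG00000023043, chr15:102028180-102032027, plus strand) lie in the keratin cluster of chromosome 15. Krt19 (ENSMUSG00000020911, chr11:100140810-100148665), Krt20 (ENSMUSG00000035775, chr11:99428403-99438150) and Krt23 (ENSMUSG00000006777, chr11:99477974-99493137) lie in the cluster of chromosome 11, all on the minus strand. Coordinates are on GRCm38. Krt8 and Krt18 are separated by 23.7 kb with no other gene between them, as are Krt20 and Krt23 by 39.8 kb.

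Keratins form the intermediate filaments of epithelial cells, and every filament is built from pairs of a type II and a type I keratin. Krt7 and Krt8 are type II keratins; Krt18, Krt19, Krt20 and Krt23 are type I. In the intestine Krt8 is the main type II keratin, Krt18 and Krt19 are its usual partners, Krt20 marks differentiated cells of the villus, and Krt7 is best known from ducts and other simple epithelia.

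The study removed Eif4g2, a translation initiation factor, from mouse small intestine and from cultures grown from it, and sequenced poly(A) RNA. Rosa26(CreER) mice carry a Cre that tamoxifen activates in all tissues; crypts (4 Eif4g2 flox/flox, 5 flox/+) and villi (5 and 5) were taken on day 9 after tamoxifen. Vil1(CreER) mice carry a Cre restricted to the epithelium and received tamoxifen (100 mg/kg, 4 daily injections). Their crypts (3 flox/flox, 4 flox/+) and villi (6 and 4) were taken 3 months after tamoxifen. In both tissue sets the controls carry CreER, received tamoxifen and have one floxed allele, so they stand for loss of a single copy and not for wild type. Crypts and villi came from the same animals where animal numbers match.

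Organoids are cultures of adult crypt epithelium in ENR medium (EGF, Noggin, R-spondin). In the first organoid set, 3 Eif4g2 flox/flox Rosa26(CreER) lines received DMSO or 0.5 µM 4-OHT, the active form of tamoxifen, and were collected on day 6. Exposure to 4-OHT lasted 24 h. In the second set every line received 0.5 µM 4-OHT for 24 h and was collected on day 6. In it 4 lines each were flox/flox, flox/+ and +/+ with CreER alone. In the A-485 set, 4 lines received DMSO or 3, 5 or 10 µM A-485, an inhibitor of the p300 and CBP acetyltransferases, for 4 days; no 4-OHT was given, and 3 lines are labelled flox/flox and 1 is labelled +/+. Fetal spheroids, cultures of fetal intestinal epithelium, came from 6 flox/flox and 5 flox/+ lines, each with DMSO and with 4-OHT (0.5 µM for 24 h), at day 6.

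The bases upstream of the start site are shown for 4 keratins that the results turn on. They show which common promoter elements stand before the keratin that varied most between groups (Krt7), the pair that is usually co-expressed (Krt8 and Krt18) and the keratin of the villus (Krt20). RefSeq's promoter table (GRCm38.p6) held 5 of the 6 genes; the unmatched gene was Krt19. Each sequence runs 5′ to 3′ on the gene's strand and holds bases from the 250 upstream of the RefSeq start, with any base that GENCODE places in a transcribed untranslated region left out. The windows are chr15:101412153-101412401 (Krt7, inside the longer gene model of the tables), chr15:102004483-102004592 (Krt8), chr15:102027966-102028179 (Krt18) and chr11:99438154-99438403 (Krt20). Capitals mark matches on either strand to any of 5 motifs, and neighbouring matches may share bases. The motifs are TATAAA as a core promoter element, GGGCGG as a GC box, TGANTCA as an element of the AP-1 factors, GGAATG as one of the TEAD factors and AGATAA as one of the zinc finger factors Gata4 and Gata6.
Krt7: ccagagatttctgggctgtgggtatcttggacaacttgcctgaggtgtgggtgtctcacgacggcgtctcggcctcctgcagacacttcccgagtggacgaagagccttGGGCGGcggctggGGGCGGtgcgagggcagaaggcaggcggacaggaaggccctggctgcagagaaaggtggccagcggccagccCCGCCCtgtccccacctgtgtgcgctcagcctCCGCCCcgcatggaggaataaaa
Krt8: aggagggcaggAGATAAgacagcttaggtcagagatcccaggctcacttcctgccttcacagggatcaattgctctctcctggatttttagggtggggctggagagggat
Krt18: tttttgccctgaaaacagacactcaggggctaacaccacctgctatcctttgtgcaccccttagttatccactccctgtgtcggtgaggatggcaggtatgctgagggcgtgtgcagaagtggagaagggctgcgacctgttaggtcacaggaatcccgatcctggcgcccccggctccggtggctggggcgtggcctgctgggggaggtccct
Krt20: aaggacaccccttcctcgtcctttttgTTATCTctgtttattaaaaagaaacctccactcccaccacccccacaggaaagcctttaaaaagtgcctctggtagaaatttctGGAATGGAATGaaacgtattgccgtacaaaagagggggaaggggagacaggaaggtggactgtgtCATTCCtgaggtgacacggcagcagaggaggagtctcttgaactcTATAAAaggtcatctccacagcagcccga
The Krt7 window holds 4 GC boxes, at 141, 128, 56 and 24 bases upstream of the start. The Krt8 window holds an AGATAA at 239 bases, and the Krt18 window holds none of the motifs searched. The Krt20 window holds a TATAAA at 29 bases, GGAATG at 139, 134 and 74 bases, and AGATAA on the opposite strand at 223 bases. Over the 32851 promoters of the table, windows of 250 bases held TATAAA in 12.4%, GGGCGG in 32.7%, TGANTCA in 6.75%, GGAATG in 12.6% and AGATAA in 9.99%. A match is a description of letters and was not tested as a site.

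The 92 libraries held 8652040 to 37611126 reads each. Values are read counts per 1000000 reads after TMM scaling of each library set (CPM), which are not corrected for gene length, and a difference is a log2 fold change from edgeR's quasi-likelihood test, called when its Benjamini-Hochberg adjusted p over all genes is under 0.05. Eif4g2, the targeted gene, fell in each flox/flox group against its control, with log2 fold changes of -1.98 (Rosa26 crypts), -2.70 (Rosa26 villi), -0.99 (Vil1 crypts), -1.37 (Vil1 villi), -2.37 (first organoid set), -1.73 (second set against flox/+) and -2.82 (spheroids). In flox/+ spheroids it was lower with 4-OHT in 5 of 5 lines (log2 difference -0.998 to -0.59) without overlap between the groups, and the unblocked fit gave -0.81, not called over all genes. The labelled tissues carried their markers: summed CPM of 10 enterocyte genes was 33864 to 86542 in villi and 721 to 7761 in crypts, and a summed list of 5 immune genes stayed under 1 CPM in every organoid and spheroid library. A summed list of squamous epithelium markers was at most 6.90 CPM in every library, with its highest value in flox/+ Rosa26 crypts. Fewer cells of a type and less RNA per cell cannot be told apart in these bulk samples.

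Keratin levels spanned different ranges over the 21 groups. Krt8 varied least: group means ran from 1223 CPM in flox/+ Vil1 crypts to 5233 CPM in organoids with 10 µM A-485, a 4.28-fold range. Krt7 varied most, from 21.6 CPM in flox/+ Rosa26 villi to 2277 CPM with 10 µM A-485, which is 105-fold. Krt20 ran over 95.9-fold, from 56.3 CPM in flox/+ spheroids with 4-OHT to 5396 CPM in flox/flox Rosa26 villi. The ranges of Krt18 (18.6-fold), Krt19 (15.2-fold) and Krt23 (24.7-fold) lay between these. These are means across sets that were scaled separately, so the ranges describe levels and are not tests.

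**Figure D1:**
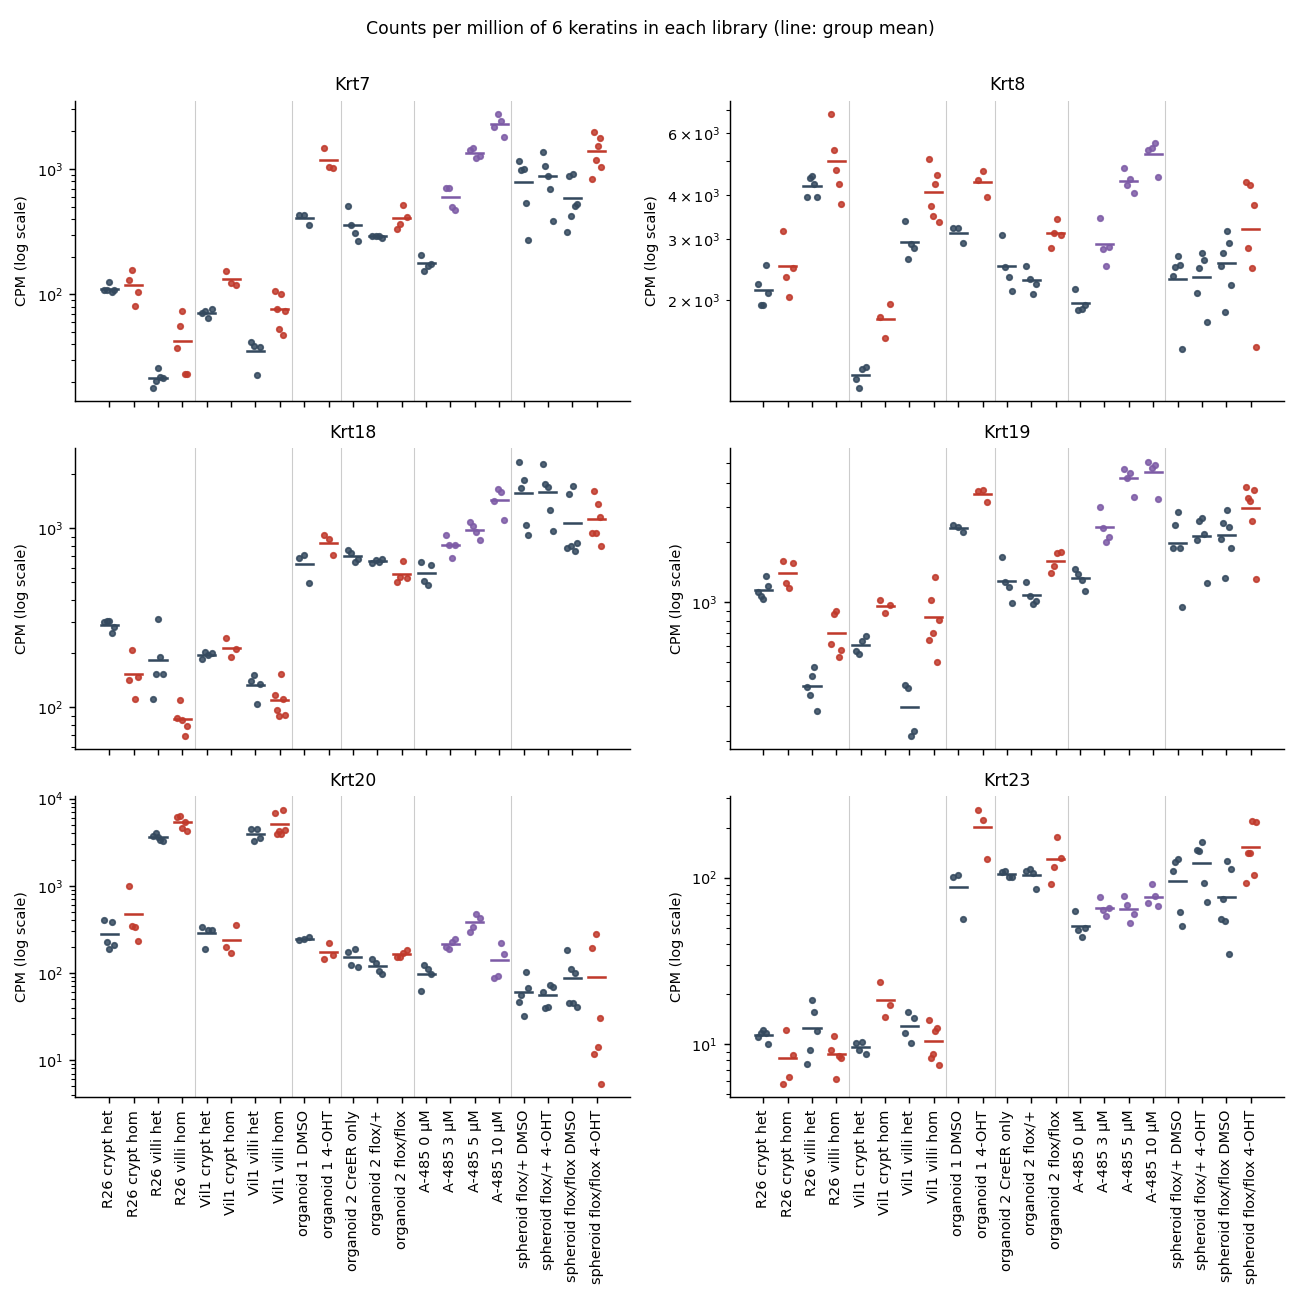
CPM of each keratin on a log axis in every library, by group; points are libraries, lines are group means, R26 is Rosa26, het is flox/+ and hom is flox/flox. Krt20 stands high in the villus groups alone, while Krt7 runs from 21.6 CPM in flox/+ Rosa26 villi to 2277 CPM with 10 µM A-485.

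Levels of different keratins were compared as CPM per kb of the gene model in the tables. Krt8 made up a mean of 32.8% to 53.2% of the summed length-corrected level of the 6 genes in every group. Krt20 made up 42.9% to 53.7% in the 4 villus groups and 0.86% to 11.8% in the other 17. In crypts and organoids the order began with Krt8 and Krt19 in every group except organoids with 5 µM A-485, where Krt19 stood above Krt8 in 3 of 4 libraries. In flox/+ spheroids the leading keratins Krt8, Krt18 and Krt19 did not keep 1 order: Krt8 exceeded Krt18 in 4 of 5 DMSO libraries, and Krt18 exceeded Krt19 in 2 of 5. The Krt7 gene model covers 7049 bases and its main coding transcript 4094, so its per-length level depends on the length used. With the length of the coding transcript, a setting chosen after seeing the data, Krt19 ranked above Krt8 on average in all spheroid groups and with each dose of A-485.

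Krt20 and Krt8 were higher in villi than in crypts of the same control genotype, and Krt7, Krt18 and Krt19 were lower. In flox/+ Rosa26 mice Krt20 measured 400, 225, 190, 384 and 208 CPM in crypts and 3778, 4073, 3634, 3375 and 3283 CPM in villi. All villus libraries lay above all crypt libraries, and the difference was 3.70 ± 0.23 (log2 fold change ± SE, adjusted p = 2.95e-08, edgeR). Krt7 measured 108, 108, 125, 105 and 108 CPM in these crypts and 18.0, 20.5, 25.8, 22.0 and 21.7 CPM in the villi. The groups did not overlap, and Krt7 fell by 2.35 on the log2 scale. Krt19 (-1.60), Krt18 (-0.64) and Krt8 (0.99) were also called, so 5 of 6 keratins differed, where 77.1% of all genes tested did. In flox/+ Vil1 mice the same 5 keratins were called, with 67.9% of all genes called, and their log2 fold changes were 3.74 (Krt20), 1.21 (Krt8), -1.08 (Krt7), -1.08 (Krt19) and -0.63 (Krt18). Scaling by library totals moved the median of all genes to -1.06 in the Rosa26 contrast. Krt8 was then at 0.02 (adjusted p = 0.88, edgeR), so its rise in Rosa26 mice is relative to the other genes. In flox/+ Vil1 mice Krt8 averaged 1574.5 CPM of library totals in crypts and 2371 CPM in villi. Krt23 was not called in either strain (0.16 and 0.38), and its direction depended on the scaling: with library totals it was -0.83 in Rosa26 mice, which was called (adjusted p = 0.0011, edgeR), and -0.23 in Vil1 mice, which was not. In Vil1 mice it was called higher by DESeq2 (0.42, adjusted p = 0.026).

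Krt18, the type I partner of Krt8, was lower in flox/flox than in flox/+ Rosa26 tissue. In crypts Krt18 measured 142, 210, 112 and 148 CPM in flox/flox mice and 299, 304, 303, 261 and 282 CPM in flox/+ mice. Every flox/flox library lay below every flox/+ library, and Krt18 fell by 0.86 on the log2 scale (SE 0.17, adjusted p = 0.0091, edgeR). It was the 1 keratin of 6 called in crypts, against 20.2% of all genes. Krt7 (0.16), Krt8 (0.28), Krt19 (0.33), Krt20 (0.83) and Krt23 (-0.40) were not called, and Krt20 stood at 0.17 without flox/flox replicate 1, the library highest in Krt20. In villi Krt18 measured 87.5, 110, 85.5, 69.5 and 78.5 CPM in flox/flox mice and 111, 154, 312, 192 and 153 CPM in flox/+ mice. These groups did not overlap either, although the highest flox/flox villus library (110) and the lowest flox/+ one (111) were close. Krt18 fell by 1.16 in villi (SE 0.25, adjusted p = 0.0059, edgeR).

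Krt19, Krt20 and Krt7 were higher in flox/flox Rosa26 villi, so 4 of 6 keratins were called there, against 33.2% of all genes. Krt19, the smallest keratin, which lacks most of the tail, measured 618, 871, 905, 528 and 573 CPM in flox/flox villi and 374, 340, 423, 472 and 284 CPM in flox/+ villi. The groups did not overlap, and the difference was 0.83 ± 0.18 (adjusted p = 0.0055, edgeR). Krt20 measured 6199, 6374, 4667, 5458 and 4282 CPM against 3778, 4073, 3634, 3375 and 3283 CPM. The flox/flox values lay above all of the flox/+ values, with a difference of 0.52 ± 0.14 (adjusted p = 0.014, edgeR) that was lost when all groups of the set entered 1 fit (0.57, adjusted p = 0.18, edgeR). Krt7 measured 37.4, 56.3, 73.3, 23.1 and 23.2 CPM against 18.0, 20.5, 25.8, 22.0 and 21.7 CPM. Here 2 flox/flox libraries lay within the flox/+ range, and the difference of 0.92 ± 0.31 was called (adjusted p = 0.039, edgeR) but held in only 3 of 10 fits that left out 1 library, those without flox/+ replicate 3 or flox/flox replicate 4 or 5. In the other 7 fits its adjusted p was 0.055 to 0.084 (edgeR), and it was 0.099 without a filter on low counts. Krt8 (0.19) and Krt23 (-0.59) were not called in villi. Epcam, an epithelium marker, was 3939 to 4797 CPM in flox/flox and 2403 to 3192 CPM in flox/+ villi, without overlap. Its part in the keratin values was not tested.

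Reads of the Y-linked gene Ddx3y were counted as present above 1 CPM of the library total. By that rule they were present in 5 of 5 flox/+ mice but in 1 of 4 flox/flox crypt libraries and 2 of 5 flox/flox villus libraries. With their presence as a covariate Krt18 kept its direction (-0.94 in crypts, -0.96 in villi) and was no longer called (adjusted p = 0.071 and 0.075, edgeR), and Krt8 (0.64) and Krt20 (1.91) were called in crypts. Stem cell marker sums were 201 to 854 CPM in flox/flox Rosa26 crypts and 3828 to 6542 CPM in flox/+ crypts, and Paneth cell marker sums 1802 to 8006 CPM against 13189 to 17873 CPM, both without overlap. Immune marker sums ran from 65.3 to 1568 CPM and from 88.3 to 328 CPM. Stroma marker sums ran from 34.0 to 1982 CPM in flox/flox and from 20.9 to 813 CPM in flox/+ crypts. Mesothelium markers were present in both. In flox/flox and flox/+ crypts Msln was 3.59 to 35.7 and 2.25 to 66.4 CPM, and Upk3b 4.20 to 53.1 and 2.72 to 79.7 CPM. Lrrn4 was 2.51 to 26.6 and 2.08 to 52.7 CPM, and Wt1 0.682 to 18.8 and 0.758 to 17.2 CPM. The mitochondrial share of reads was 13.7% to 25.2% against 6.24% to 12.4%. With mitochondrial genes left out of the Rosa26 and Vil1 crypt fits, all 12 keratin results kept their direction and side of the threshold. That refit removes the reads of these genes only. The part of the marker sums and of the mitochondrial share in the keratin values was not tested. The difference between villi and crypts in the effect of genotype was called for 0 of 6 keratins by edgeR and 0 by DESeq2, with 2 keratins under an unadjusted p of 0.05 and 11.5% of all genes called.

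**Figure D2:**
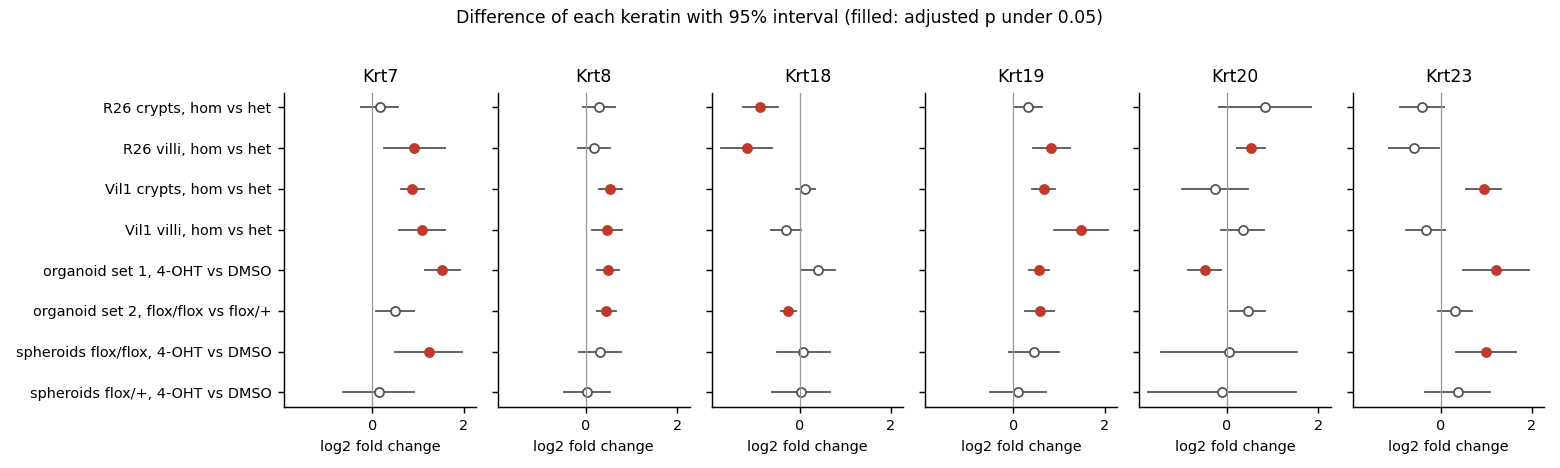
Log2 fold change of each keratin with its 95% interval in the main comparisons; filled points are called at an adjusted p under 0.05. Krt18 lies left of 0 in Rosa26 tissue while Krt7 and Krt19 lie right of 0 in Vil1 tissue and in the first organoid set.

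In Vil1-CreER mice, 3 months after tamoxifen, Krt7 and Krt19 were higher in flox/flox crypts and villi. In crypts 4 of 6 keratins were called, all higher, where 29.3% of all genes were called in either direction and 11.6% were called higher. Krt7 measured 154, 123 and 118 CPM in flox/flox crypts and 71.5, 74.5, 64.8 and 76.0 CPM in flox/+ crypts. The groups did not overlap, and the difference was 0.88 ± 0.11 (adjusted p = 0.00084, edgeR). Krt8 measured 1799, 1564 and 1948 CPM against 1196, 1127, 1278 and 1290 CPM, a difference of 0.54 ± 0.11. Krt19 measured 1029, 883 and 963 CPM against 566, 547, 635 and 678 CPM, a difference of 0.66 ± 0.11. Krt23 measured 23.6, 14.5 and 17.2 CPM against 10.2, 9.18, 10.3 and 8.70 CPM, a difference of 0.95 ± 0.17. Flox/flox libraries lay above all flox/+ libraries for each of these 3 genes, with adjusted p of 0.0073, 0.0027 and 0.0041 (edgeR). Krt19 was not called when all groups of the set entered 1 fit (adjusted p = 0.10, edgeR). Krt18 (0.13) and Krt20 (-0.26) were not called.

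In Vil1 villi 3 of 6 keratins were called, against 42.5% of all genes. Krt19 ran from 502 to 1339 CPM with a median of 756 CPM in 6 flox/flox libraries and measured 381, 369, 213 and 224 CPM in the flox/+ libraries. The groups did not overlap, and the difference was 1.48 ± 0.28 (adjusted p = 0.00097, edgeR). Krt7 ran from 47.2 to 107 CPM with a median of 75.6 CPM, against 42.0, 38.5, 22.6 and 37.9 CPM, again with no overlap and a difference of 1.09 ± 0.24. Krt8 ran from 3354 to 5063 CPM, against 3367, 2627, 2896 and 2815 CPM. The lowest flox/flox value lay just under the highest flox/+ value, and the difference of 0.46 ± 0.15 (adjusted p = 0.028, edgeR) was lost without flox/+ replicate 2, 3 or 4 or flox/flox replicate 1 or 4 (adjusted p = 0.053 to 0.091, edgeR). Krt18 (-0.29), Krt20 (0.34) and Krt23 (-0.33) were not called.

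Krt23 is the one keratin whose genotype effect differed between Vil1 villi and crypts: it was 1.25 lower on the log2 scale in villi (SE 0.29, adjusted p = 0.011, edgeR), with 15.5% of all genes called. The Krt23 difference was 0.95 in crypts and -0.33 in villi. Stem cell marker sums were 284 to 523 CPM in flox/flox Vil1 crypts and 4888 to 5460 CPM in flox/+ crypts, and Paneth cell marker sums 308 to 771 CPM against 2614 to 5666 CPM, both without overlap. Immune marker sums were 302 to 417 CPM and 53.1 to 460 CPM. The mitochondrial share was 30.4% to 40.3% against 17.5% to 30.8%. In Vil1 villi goblet cell marker sums were 1254 to 2150 CPM in flox/flox and 6859 to 11415 CPM in flox/+ libraries. Immune marker sums there were 33.9 to 154 CPM in flox/flox and 194 to 340 CPM in flox/+ libraries, without overlap. Epcam, an epithelium marker, was 3247 to 4565.5 CPM in flox/flox and 2223 to 2390 CPM in flox/+ villi, also without overlap. Their part in the keratin values was not tested.

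The balance of Krt8 to Krt18, computed per kb within each library, was higher in flox/flox than in flox/+ tissue. Its log2 value was 2.23 to 2.83 in flox/+ and 3.03 to 4.03 in flox/flox Rosa26 crypts. It was 3.41 to 4.71 in flox/+ and 5.13 to 5.83 in flox/flox Rosa26 villi. In Vil1 mice it was 2.02 to 2.25 against 2.44 to 2.75 in crypts and 3.67 to 4.35 against 4.36 to 5.00 in villi. The flox/flox ratio lay above the flox/+ ratio without overlap in all 4 tissue contrasts. In the second organoid set the ratio was 1.92 to 2.10 in flox/flox lines, 1.24 to 1.51 in flox/+ lines and 1.21 to 1.57 in +/+ lines. In the first organoid set it was 1.74 to 2.10 with DMSO and 1.82 to 2.02 with 4-OHT, which overlap. Spheroids had the lowest ratios, down to -0.57 in 1 flox/+ library with 4-OHT. No test was made of this ratio, which is a score over members.

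**Figure D3:**
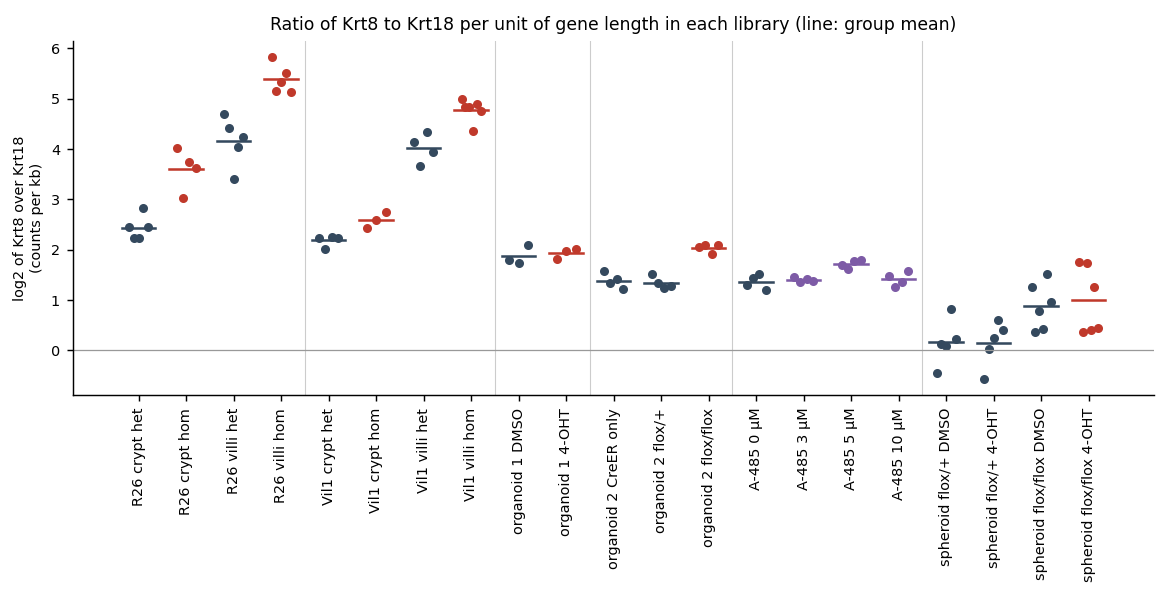
Log2 ratio of Krt8 to Krt18 per kb of gene model in each library, by group, with the group mean as a line. The flox/flox points of each tissue pair lie above the flox/+ points, for example 3.03 to 4.03 against 2.23 to 2.83 in Rosa26 crypts.

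In the first organoid set, Krt7, Krt8, Krt19 and Krt23 were higher and Krt20 lower with 4-OHT, so 5 of 6 keratins were called, against 35.4% of all genes. Krt7 measured 434, 429 and 361 CPM with DMSO and 1484, 1042 and 1030 CPM with 4-OHT in the same 3 lines. All lines rose, and the difference was 1.54 ± 0.17 (adjusted p = 0.00088, edgeR). Krt23, a type I keratin of low level, measured 101, 104 and 56.6 CPM and then 255, 222 and 130 CPM. Krt8 measured 3213, 3222 and 2909 CPM and then 4423, 4684 and 3935 CPM. Krt19 measured 2438, 2388 and 2244 CPM and then 3639, 3651 and 3175 CPM. Each of these genes was higher with 4-OHT in 3 of 3 lines without overlap, with differences of 1.21 ± 0.31 (Krt23), 0.48 ± 0.10 (Krt8) and 0.57 ± 0.09 (Krt19). The Krt23 call was lost without 4-OHT replicate 1 or 2 (adjusted p = 0.063 to 0.065, edgeR) and without a filter on low counts (adjusted p = 0.11, edgeR). Krt20 measured 241, 242 and 256 CPM with DMSO and 146, 219 and 161 CPM with 4-OHT. It fell by 0.49 on the log2 scale in this fit (adjusted p = 0.039, edgeR). The Krt20 call held in 1 of 6 fits without 1 library, the one without 4-OHT replicate 2 (adjusted p 0.076 to 0.11 in the other 5, edgeR). It was lost when the groups of the A-485 set, a separate experiment, were added to the fit (adjusted p = 0.26, edgeR). Krt18 measured 679, 709 and 498 CPM and then 918, 870 and 712 CPM and was not called (0.41, adjusted p = 0.088, edgeR). With the line as a block, since the lines are the same in both groups, Krt18 was called too (0.42, adjusted p = 0.0091, edgeR). No line without a floxed allele is in this set, so 4-OHT itself and loss of Eif4g2 cannot be told apart here. Enterocyte marker sums were 12218 to 16262 CPM with DMSO and 5418 to 8378 CPM with 4-OHT. Stem cell sums were 1167 to 1637 CPM against 198 to 255 CPM, and Paneth cell sums 1208 to 1490 CPM against 161 to 342 CPM. None of the 3 ranges overlapped, and their part in the keratin values was not tested.

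In the second organoid set, flox/flox lines had more Krt8 and Krt19 and less Krt18 than flox/+ lines, so 3 of 6 keratins were called, against 46.8% of all genes. Krt8 measured 2825, 3114, 3412 and 3072 CPM in flox/flox lines and 2500, 2306, 2092 and 2232 CPM in flox/+ lines. The groups did not overlap, and the difference was 0.44 ± 0.10 (adjusted p = 0.0020, edgeR). Krt19 measured 1402, 1513, 1768 and 1783 CPM against 1259, 1079, 980 and 1014 CPM, also without overlap, with a difference of 0.58 ± 0.15. Krt18 measured 500, 534, 661 and 526.2 CPM against 642, 667, 652 and 677 CPM. The flox/flox value of 661 lay within the flox/+ range, and the difference of -0.25 ± 0.08 (adjusted p = 0.018, edgeR) was lost without flox/flox replicate 1, 2 or 4 (adjusted p = 0.051 to 0.055, edgeR). Krt7 (0.49, adjusted p = 0.052, edgeR) and Krt20 (0.46, adjusted p = 0.050, edgeR) did not overlap between the groups but missed the threshold. They were called with only these 2 groups in the fit (adjusted p = 0.0093 and 0.018, edgeR). Stem cell marker sums were 1568 to 2513 CPM in flox/flox and 5845 to 7872 CPM in flox/+ lines, and Paneth cell sums 1020 to 1343 CPM against 4301 to 4609 CPM, both without overlap, and their part in the keratin values was not tested.

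Against +/+ lines 2 of 6 keratins were called, against 45.3% of all genes. Krt8 was 0.31 ± 0.10 higher in flox/flox lines and Krt18 0.34 ± 0.08 lower (adjusted p = 0.019 and 0.0029, edgeR). The +/+ lines measured 3083, 2487, 2336 and 2127 CPM of Krt8 and 760, 726, 645 and 674 CPM of Krt18, and both genes overlapped with the flox/flox values. The Krt8 call was lost without flox/flox replicate 3 or +/+ replicate 3 or 4 (adjusted p = 0.057 to 0.064, edgeR) and without a filter on low counts (adjusted p = 0.056, edgeR). Krt19 was called by DESeq2 (0.33, adjusted p = 0.040). The 2 contrasts share their flox/flox libraries. Between flox/+ and +/+ lines 0 of 6 keratins were called by edgeR and 0 by DESeq2, with 0 under an unadjusted p of 0.05 and 0.113% of all genes called.

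Of the 6 keratins 5 were higher with A-485 than with DMSO at each dose. Of all genes tested, 10.8% were higher at 3 µM, 24.4% at 5 µM and 29.4% at 10 µM, and 19.2%, 49.6% and 62% were called in either direction. Krt7 measured 208, 155, 170 and 175 CPM with DMSO, then 714, 713, 501 and 473 CPM with 3 µM, 1428, 1480, 1239 and 1276 CPM with 5 µM, and 2164, 2746, 2407 and 1790 CPM with 10 µM. No dose overlapped with the next, and the log2 fold change against DMSO was 1.76 ± 0.16, 2.94 ± 0.16 and 3.69 ± 0.17 (adjusted p = 4.65e-07, 4.48e-10 and 1.13e-11, edgeR). Krt19 measured 1465, 1388, 1292 and 1140 CPM with DMSO and 5069, 4755, 4900 and 3308 CPM with 10 µM. Its log2 fold change was 0.85, 1.67 and 1.77 at the rising doses. Krt8 measured 2152, 1880, 1891 and 1943 CPM with DMSO and 5363, 5427, 5627 and 4513 CPM with 10 µM. Its log2 fold change was 0.56, 1.15 and 1.41, and that of its partner Krt18 was 0.51, 0.80 and 1.36. All 4 lines were higher than with DMSO for Krt7, Krt8, Krt18 and Krt19 at every dose. With the 3 flox/flox lines alone, an alternative chosen after seeing the data, Krt18 at 3 µM kept its size (0.51) but missed the threshold (adjusted p = 0.062, edgeR), as it did without DMSO replicate 2 (adjusted p = 0.058, edgeR).

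Krt20 did not keep rising with dose. It measured 62.3, 123, 110 and 96.6 CPM with DMSO, 196, 188, 223 and 246 CPM with 3 µM, 299, 341, 470 and 430 CPM with 5 µM, and 87.1, 91.99, 219 and 165 CPM with 10 µM. The 5 µM libraries were the highest in every line, and the 10 µM libraries overlapped with DMSO. Its log2 fold change against DMSO was 1.12 at 3 µM, 1.97 at 5 µM and 0.52 at 10 µM, and the last was not called (adjusted p = 0.10, edgeR). From 5 to 10 µM Krt20 fell by 1.45 on the log2 scale (SE 0.27, adjusted p = 0.00093, edgeR). Krt7 (0.75) and Krt18 (0.56) rose over that step, so 3 of 6 keratins were called, against 18.9% of all genes. With the line as a block Krt8 was called as well (0.24, adjusted p = 0.0028, edgeR). From 3 to 5 µM Krt7, Krt8, Krt19 and Krt20 rose, 4 of 6 keratins against 24.5% of all genes, and Krt18 joined them with the block (0.29, adjusted p = 0.038, edgeR). The Krt20 call of that step was lost without 3 µM replicate 1, 2 or 3 or 5 µM replicate 3 or 4 (adjusted p = 0.055 to 0.082, edgeR) and without a filter on low counts (adjusted p = 0.082, edgeR).

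Krt23 ran from 44.1 to 62.9 CPM with DMSO and from 67.6 to 91.3 CPM with 10 µM A-485, without overlap, a difference of 0.57 ± 0.14 (adjusted p = 0.0019, edgeR). At 3 and 5 µM it was not called (0.36 and 0.34) but was with the line as a block (adjusted p = 0.042 and 0.013, edgeR). These doses share their DMSO libraries. Enterocyte marker sums went from between 6631 and 13061 CPM with DMSO to between 175 and 486 CPM with 10 µM, and stem cell marker sums from between 6415 and 7629 CPM to between 44.2 and 76.2 CPM. Of 4 mesothelium markers, Msln went from at most 71.3 CPM to at least 937 CPM, Upk3b went from at least 24.4 CPM to at most 0.776 CPM, and Wt1 was at 0 in all of these libraries. The part of these cell type markers in the keratin values was not tested.

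**Figure D4:**
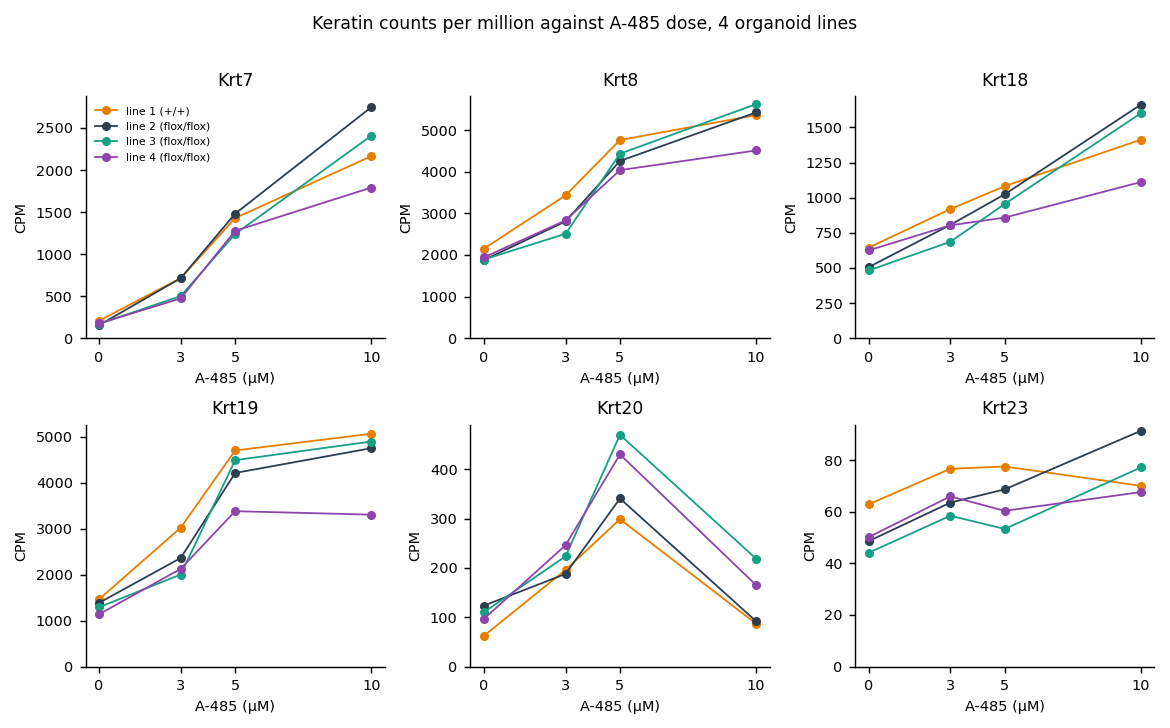
CPM of each keratin against A-485 dose (0, 3, 5 and 10 µM) in 4 organoid lines, one line of points per culture; axes start at 0. Krt7 climbs with each dose in all lines, while Krt20 is highest at 5 µM in each line.

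In flox/flox fetal spheroids Krt7 and Krt23 were higher with 4-OHT, 2 of 6 keratins against 19.1% of all genes. Krt7 ran from 313 to 915 CPM with a median of 513 CPM with DMSO and from 838 to 1985 CPM with a median of 1355 CPM with 4-OHT. The ranges overlap, but all 6 lines were higher with 4-OHT, and the difference was 1.23 ± 0.35 (adjusted p = 0.017, edgeR). Krt23 ran from 34.8 to 126 CPM with DMSO and from 92.8 to 219 CPM with 4-OHT, again higher in 6 of 6 lines, with a difference of 0.99 ± 0.32 (adjusted p = 0.033, edgeR) that was lost without DMSO replicate 1, 2, 3 or 5 or 4-OHT replicate 4 or 6 (adjusted p = 0.053 to 0.081, edgeR), and without a filter on low counts (adjusted p = 0.059, edgeR). Krt8 (0.31), Krt18 (0.08) and Krt19 (0.45) were not called and were higher in 4 of 6 lines each.

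Krt20 split the flox/flox spheroid lines. It went from 182 to 194 CPM in line S9484-D and from 111 to 282 CPM in line S9484-A. In the other 4 lines it went from 44.9 to 11.8, 44.6 to 14.2, 100.2 to 30.6 and 40.6 to 5.37 CPM. The fitted difference was 0.04 without a block and -1.15 with the line as a block, and neither was called (adjusted p = 0.98 and 0.19, edgeR). Enterocyte marker sums with 4-OHT were 3017 and 7145 CPM in the S9484 lines and 33.4 to 248 CPM in the other 4, and their part in the Krt20 values was not tested.

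In flox/+ spheroids the unblocked fits called 0 of 6 keratins with 4-OHT by edgeR and 0 by DESeq2. With edgeR 0 keratins and 15 of 15032 genes had an unadjusted p under 0.05, and 0% of all genes were called. Deviations of libraries of the same line correlated at 0.626 to 0.857, which these fits leave out, so they can miss changes that the lines share. Eif4g2, lower in 5 of 5 lines, was not called by edgeR either. Krt7 measured 1161, 994, 1012, 537 and 273 CPM with DMSO and 1361, 1066, 877, 689 and 386 CPM with 4-OHT, a difference of 0.14 with a 95% interval from -0.65 to 0.92. Krt23 was higher with 4-OHT in 5 of 5 flox/+ lines (0.37, not called). The difference between flox/flox and flox/+ lines in the effect of 4-OHT was called for 0 of 6 keratins by edgeR and 0 by DESeq2, with Krt7 alone under an unadjusted p of 0.05 and 1.62% of all genes called. With the line as a block, since each line appears with DMSO and with 4-OHT, it was called for Krt7 (1.08, adjusted p = 0.0017, edgeR) and Krt23 (0.65, adjusted p = 0.012, edgeR), 2 of 6 keratins where 18.3% of all genes were called in that fit.

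Between flox/flox and flox/+ spheroids 0 of 6 keratins were called by edgeR or DESeq2, either with 4-OHT (10.5% of all genes called) or with DMSO (0% called), and none had an unadjusted p under 0.05. With the prefix of the line name as a covariate Krt20 was lower in flox/flox lines with 4-OHT (-2.52, adjusted p = 0.045, edgeR), where the fit without it gave 0.67. The S9484 lines are all flox/flox and the S9612 lines all flox/+. The genotype difference of that fit therefore rests on the S9488 and S9020 lines, with S9488-I and S9020-C as the only flox/+ ones.

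**Figure D5:**
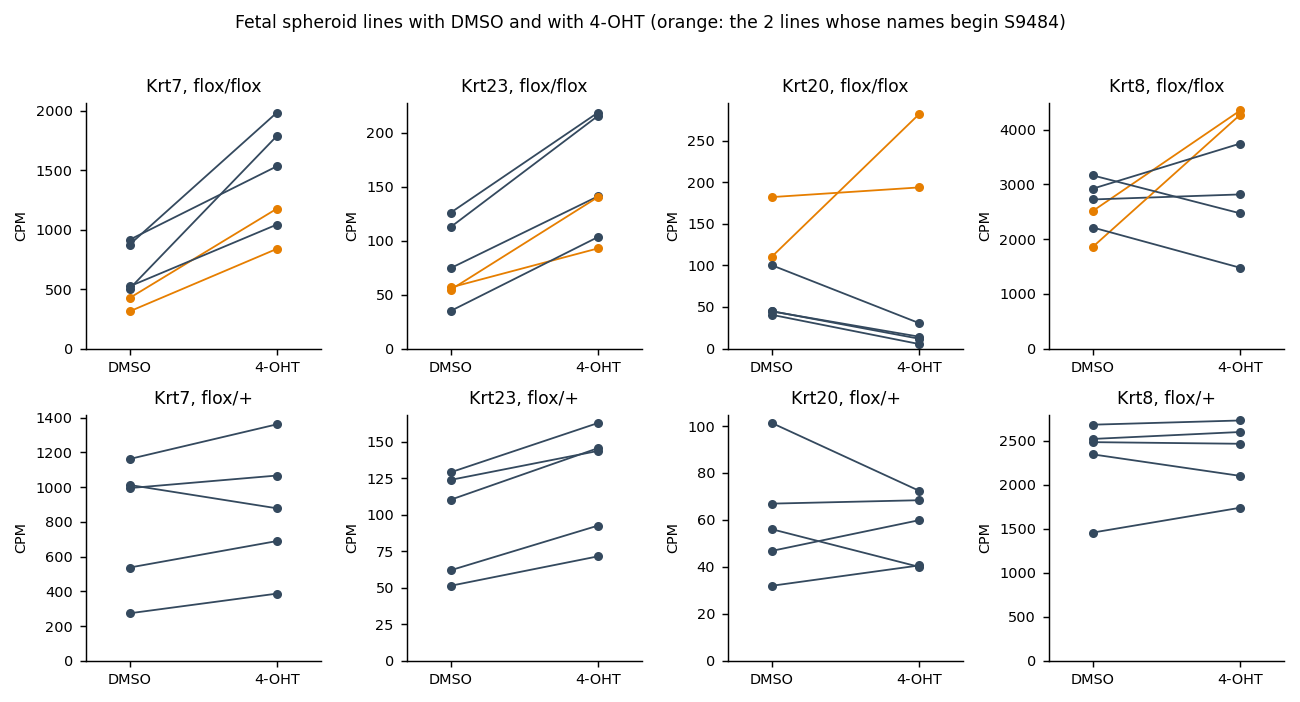
CPM of keratins in each fetal spheroid line with DMSO and with 4-OHT, joined by line, for flox/flox and flox/+ lines; the S9484 lines are in orange. Krt7 rises in all 6 flox/flox lines, while Krt20 is higher with 4-OHT in the S9484 lines and lower in the other 4.

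Fetal spheroids had more Krt7, Krt18 and Krt19 than adult organoids of the second set, both with 4-OHT. For flox/+ lines 4 of 6 keratins were called, against 47.9% of all genes. Krt18 measured 2294, 1774, 1703, 1260 and 970 CPM in spheroids and 642, 667, 652 and 677 CPM in organoids. The groups did not overlap, and the difference was 1.397 ± 0.22 (adjusted p = 0.00083, edgeR). In the same line order, stem cell marker sums were 158, 154, 162, 1592 and 6158 CPM in these spheroids. They were 5845 to 7872 CPM in the organoids, and their part in the keratin values was not tested. Krt7 differed by 1.71 and Krt19 by 1.11, and Krt20 was 0.96 lower on the log2 scale (SE 0.21). Krt20 was not called when all groups entered 1 fit (adjusted p = 0.31, edgeR). For flox/flox lines 3 of 6 keratins were called, Krt7 (1.89), Krt18 (1.15) and Krt19 (1.01), against 24.6% of all genes. Krt19 was lost for flox/flox lines without organoid replicate 1 or 2 (adjusted p = 0.067 to 0.071, edgeR). Its values overlapped between spheroids and organoids in both genotypes. The 2 sets differ in developmental age, lines and culture, which cannot be told apart.

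Genes that work with keratin filaments were counted from fixed lists. Of 10 desmosome and plakin genes, which anchor filaments to junctions, 6 rose and 0 fell in flox/flox Vil1 villi, where 42.5% of all genes were called (median log2 fold change 0.44, against 0.05 over all genes). Among them Ppl, which encodes periplakin, was at 1.78. In Vil1 crypts 3 rose and 3 fell, against 29.3% of all genes, with Ppl at 1.83 and Eppk1, which encodes epiplakin, at -0.86. In Rosa26 crypts 1 rose (Ppl, 1.24) and 0 fell, and in Rosa26 villi 2 rose and 1 fell, against 20.2% and 33.2% of all genes. With 4-OHT 4 rose and 1 fell in the first organoid set (Ppl 0.62), against 35.4% of all genes. In flox/flox spheroids 0 rose and 1 fell (Jup, which encodes plakoglobin, -0.53), against 19.1%. With 10 µM A-485 6 rose and 1 fell, against 62% of all genes, with Ppl at 1.94, Plec, which encodes plectin, at 1.31, Dsp, which encodes desmoplakin, at 1.26, and Eppk1 at -4.75. Of 5 genes that organise keratin networks, Fam83h alone is given here and does not stand for the list. It was higher in Vil1 villi (1.01), in the first organoid set (0.70) and with 10 µM A-485 (1.69). In these comparisons 42.5%, 35.4% and 62% of all genes were called in either direction.

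Genes of other filaments were read from the same fits. Vim, which encodes the filament protein of mesenchyme, fell in the first organoid set (-3.24), in flox/flox spheroids (-3.21) and with 10 µM A-485 (-9.96). In these comparisons 35.4%, 19.1% and 62% of all genes were called, and the other comparisons of Vim are not given here. Stroma marker sums were at most 0.640 CPM in the first organoid set, 8.26 CPM in flox/flox spheroids and 0.799 CPM in the A-485 set. Their part in the Vim values was not tested. The lamin genes, which line the nuclear envelope, split with 10 µM A-485: Lmna rose (1.61) and Lmnb1 (-2.13) and Lmnb2 (-1.59) fell. Of 16 other keratins few passed the filter on low counts. Krt4, a type II keratin of stratified epithelium, was 6.01 higher in flox/+ spheroids than in organoids, rose by 1.53 with 4-OHT in the first organoid set and fell by 5.15 with 10 µM A-485.

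Keratins did not all vary together. Pearson's r of log2 CPM across 92 libraries, with each set centred on its own mean, was 0.87 for Krt7 and Krt19, 0.73 for Krt8 and Krt20, 0.61 for Krt7 and Krt18, and -0.15 for Krt8 and Krt18. Libraries of a set share their design, so these values describe this collection and carry no test. Over 11435 genes the patterns most like Krt7 were Fkbp9 (r = 0.89), Ehd2 (0.88) and Atp11a (0.87), and those most like Krt8 were Anxa2 (0.93), Tax1bp3 (0.92) and Ap2m1 (0.91). Krt18 was most like Tent5b (0.80), Bcam (0.77) and Ildr1 (0.77), and Krt19 most like S100a16 (0.88), Mrps6 (0.87) and Traf4 (0.86). Krt20 was most like Cyp3a13 (0.94), Mall (0.93) and Klf4 (0.92), and Krt23 most like Cwh43 (0.66), Arhgef1 (0.64) and Mtcl1 (0.61).

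Reads that could be shared with other features were few. The antisense gene Gm671 overlaps Krt7 and held 0.108% as many reads as it, and Gm36026 overlaps Krt8 and held 0.044%. The processed pseudogene Krt8-ps held at most 369 reads in a library.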

How the data were processed

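Poly(A) RNA was converted to directional libraries by dUTP marking, per the labels' protocols. The authors deposited raw read counts per gene in 4 tables, and the values are whole numbers. Per the submitters' processing notes reads were aligned with HISAT2 2.0.5 and the builds named are GRCm38 and mm10. The counting program, its strand setting and the annotation are not given in the sources used here; 54409 of 54532 gene identifiers match GENCODE vM21. Organoid libraries in WENR medium are not used here.

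Counts were filtered with filterByExpr, scaled by TMM and tested with edgeR 4.0.16 (robust quasi-likelihood F-test, R 4.3.3) over all genes, with Benjamini-Hochberg adjustment and a threshold of 0.05. DESeq2 1.42.0 was an alternative. No block entered the main tests. The replicate numbers pair samples of the same animal or line (A-485, first organoid set, spheroids within a genotype, villi against crypts), where correlations of deviations ran up to 0.857 (flox/+ spheroids); blocked values are given where they change a call. The 6 keratins, Eif4g2 and the gene lists were named by rule: at most 4 called genes per list and comparison by size, and the 3 genes most like each keratin by r, leaving out predicted, clone-named and pseudogene symbols. The members and lists were chosen with earlier results of these data known. P-values measure the spread between these samples, and counting error alone is small at these depths.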

Additional observations from a re-analysis of the deposited data

Results flagged for a closer look

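In the 108 combinations of a keratin and a group of 4 to 10 libraries, 4 held a library that stands apart by Dixon's 95% criterion; chance gives about 1 in 20. Krt20 was 998 CPM in flox/flox Rosa26 crypt replicate 1, where the other 3 libraries ran from 231 to 346 CPM, and the summed enterocyte markers were 7761 CPM in that library and 2524 to 2956 CPM in the others. Krt7 was 125 CPM in flox/+ Rosa26 crypt replicate 3, against 105 to 108 CPM. The summed stroma markers were 813 CPM in that library and 20.9 to 359 CPM in the others. Krt8 was 1458 CPM in flox/+ spheroid line S9020-C with DMSO, against 2346 to 2684 CPM. Krt20 was 190 CPM in flox/+ Vil1 crypt replicate 2, against 311 to 332 CPM, and the enterocyte markers were 1577 CPM there against 3000 to 3653 CPM. The part of the enterocyte and stroma markers was not tested. The effect of genotype on Krt23 differed between Vil1 villi and crypts by -1.25 on the log2 scale (edgeR interaction, adjusted p = 0.011).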

How the results depend on the processing

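Of 1470 keratin differences fitted without 1 library, 1351 kept their direction and side of the threshold. The number of keratins called moved by over 1.5 times as follows. With DESeq2 it was 2 in Rosa26 crypts and 5 in the second organoid set against flox/+, and with only those 2 groups in the fit it was 5 there too. With Ddx3y reads as a covariate it was 2 in Rosa26 crypts and 2 in villi. With library totals it was 2 for the Vil1 villus and crypt difference. Without a filter it was 1 in the second set against +/+ and 1 in flox/flox spheroids after 4-OHT, where the 2 groups alone also gave 1. The line prefix gave 1 between spheroid genotypes with 4-OHT. Without 1 library the changed counts were 2 (Rosa26 crypts), 2 (Vil1 difference), 3 (first organoid set), 1 to 4 (second set against +/+) and 1 (flox/flox spheroids). With the replicate block the count was 2 for the spheroid difference between genotypes and 1 for the second organoid set against +/+. Same-numbered libraries of Rosa26 or Vil1 genotypes, the second organoid set and spheroid genotypes share only a number: correlations ran from -0.466 to 0.599, and the block gave Krt7 0.47 (adjusted p = 0.018, edgeR) for flox/flox against flox/+ organoids.

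Smaller moves included 6 with DESeq2 in Vil1 villi against crypts and 3 in the second set against +/+, and 3, 4 and 3 without a filter in Rosa26 villi, the first organoid set and 5 against 3 µM. With all groups of a set in the fit, 3 were called in Rosa26 villi and 3 in Vil1 crypts. With the A-485 groups added to the fit, 4 were called in the first organoid set. Library totals also called Krt20 in Vil1 villi (0.48), at 10 µM (0.65) and in the second set against flox/+ (0.46), Krt23 at 3 and 5 µM (0.48 and 0.41) and Krt8 from 5 to 10 µM (0.31).

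Some directions turned. With library totals Krt18 was -0.028 in Vil1 crypts, Krt23 -0.83 in Rosa26 (called) and -0.23 in Vil1 villi against crypts, Krt23 0.0084 for the Rosa26 difference and Krt8 0.24 for the Vil1 difference. Krt8 in the Vil1 difference was 0.00049 without a filter and 0.040 with the block, and -0.037 with the block in the Rosa26 difference. Krt20 with the block was -1.15 in flox/flox spheroids, -0.29 between spheroid genotypes with 4-OHT and -1.09 for their difference. With the line prefix it was -2.52 (called) with 4-OHT, from 0.67, and -0.030 with DMSO, and Krt23 was 0.13 with DMSO. Without 1 library, ranges that cross 0 were, for Krt7, -0.028 to 0.28 (Rosa26 crypts) and -0.080 to 0.33 (flox/+ spheroids). For Krt8 they were -0.12 to 0.10 (Rosa26 difference), -0.13 to 0.020 (Vil1 difference) and -0.11 to 0.11 (flox/+ spheroids). For Krt18 they were -0.31 to 0.10 (Rosa26 difference), -0.14 to 0.24 (spheroid difference), -0.042 to 0.27 (flox/flox spheroids) and -0.14 to 0.22 (flox/+ spheroids). For Krt19 they were -0.048 to 0.29 (spheroid genotypes with DMSO) and -0.073 to 0.27 (flox/+ spheroids). For Krt20 they were -0.42 to 0.39, -0.66 to 0.50, -0.14 to 0.91, -0.77 to 0.40 and -0.27 to 0.16 (Rosa26 difference, spheroid difference, spheroid genotypes with 4-OHT, flox/flox and flox/+ spheroids). For Krt23 they were -0.12 to 0.057 (5 against 3 µM), -0.067 to 0.24 (Rosa26 villi against crypts), -0.26 to 0.18 (Rosa26 difference) and -0.062 to 0.065 (flox/+ against +/+ organoids).

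Over all genes, library totals moved the share of calls that were higher from 42.7% to 28.0% in Rosa26 crypts, 39.6% to 20.2% in Vil1 crypts, 49.1% to 62.7% in Vil1 villi, 47.3% to 20.5% and 48.1% to 25.6% in villi against crypts (Rosa26, Vil1), 60.4% to 82.3% in the Vil1 difference and 56.2% to 74.3% at 3 µM A-485. The genes called in flox/flox spheroids went from 2864 to 4649 with the line as block, and those of the spheroid difference from 243 to 2758 (123 without a filter, 603 with DESeq2). Those of the Rosa26 difference went from 1904 to 777 with the block, 1221 without a filter and 2884 with DESeq2. With the block the genes called went from 1577 to 141 between spheroid genotypes with 4-OHT (880 with 2 groups, 564 with the prefix) and from 2592 to 3941 from 5 to 10 µM. They went from 5422 to 3079 with the A-485 groups added (first organoid set) and 4504 to 2967 with Ddx3y (Rosa26 villi). They went from 2637 to 1374 with 3 lines (3 µM) and 3358 to 2229 with 2 groups (5 against 3 µM). The causes were not tested. Of 126 group means, 32 moved by more than 1 SD when CPM used library totals.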
